A study of Homo sapiens with 8 samples.

Results

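The Fanconi anaemia and homologous recombination genes described here were 37 genes, taken by symbol from a list with no threshold on a measured value. The list was chosen with earlier results of these data known. All 37 had at least 1 probe among the 43317 genes of the array, and all 37 were well above background in at least 1 channel on each of the 8 arrays. Their products repair DNA that has been crosslinked or broken. The Fanconi anaemia (FA) core complex attaches ubiquitin to the FANCI-FANCD2 pair at a stalled replication fork, nucleases then open the lesion, and BRCA2 and its partners prepare the resected ends for strand invasion, so that the sister chromatid serves as the template. The sister exists only after replication, and many of these genes are transcribed mainly in S and G2 phase in dividing cells.

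Gene expression was measured on 8 Agilent 2-colour arrays, 1 per condition, with RNA of mock cells labelled with Cy3 and RNA of transfected cells with Cy5. PC3 cells, a human prostate cancer line derived from a bone metastasis, received miR-99a-3p or miR-100-3p, or the miR-150-3p or miR-150-5p strand of miR-150. FaDu cells, a hypopharyngeal squamous cell carcinoma line, received miR-99a-3p or miR-99a-5p, and PANC-1 cells, a pancreatic cancer line, received si-FOXQ1-1 or si-FOXQ1-2, siRNAs against the transcription factor FOXQ1. RNAs were delivered with Lipofectamine RNAiMAX, and the labels give the Cy3 cells of each array as the same line without transfection. No control miRNA or control siRNA was hybridised on these arrays, no dye was swapped and the labels give no time point. Values below are log2 ratios of transfected over mock cells, and a value past 1 or -1 differs by more than 2-fold. Each condition was hybridised once, so replicates are lacking, no test was run and each ratio describes 1 pair of RNA samples. In bulk RNA, fewer cells that express a gene and less RNA of it per cell cannot be told apart.

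The miRNAs are shown because their seeds, bases 2 to 8 in capitals, set which transcripts a miRNA can pair with. The miR-99a hairpin on chromosome 21 gives both miR-99a strands, and miR-100-3p comes from a related hairpin on chromosome 11. Mature sequences are given for 3 of the 5 transfected miRNAs, from RefSeq (GRCh38.p14), and miR-150-3p and miR-150-5p are named only.
miR-99a-3p: cAAGCUCGcuucuaugggucug
miR-100-3p: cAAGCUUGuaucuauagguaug
miR-99a-5p: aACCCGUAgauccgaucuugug
The miR-100-3p and miR-99a-3p seeds had 6 of 7 bases in common and differed by U7C, with positions counted from 1 at the 5′ end and the miR-100-3p base first. Over all 22 bases, 17 were identical. The miR-99a-5p seed had only 2 of 7 positions in common with that of miR-99a-3p.

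The 2 FOXQ1 siRNAs left FOXQ1 at log2 ratios of -2.16 and -2.12. In the mock channels, the squamous genes TP63, KRT5 and KRT14 were well above background in both FaDu channels and in none of PC3 or PANC-1. The prostate gene KLK3 was above background in 0 of the 4 PC3 mock channels. Between 81 and 178 of the 60901 gene spots per array carried an outlier flag, and none was saturated. The 4 PC3 mock channels fell into pairs. Over the 37 genes, the mock channels of the miR-99a-3p and miR-100-3p arrays differed by a median of 0.0605 on the log2 scale, and those of the miR-150-3p and miR-150-5p arrays by 0.0345. Across these pairs the median difference was 0.139 to 0.205.

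After miR-99a-3p in PC3 cells, 36 of the 37 genes had a log2 ratio below 0, and their median was -1.55 while that of all detected genes was 0.02. Below -1 lay 22 of 37 genes, where 7.39% of all detected genes did. None lay above 1, where 4.23% of all genes did. The scanner software's error of a spot ranged from 0.204 to 0.758 over the 37 genes and 8 arrays with a median of 0.208, and 2 of the 37 ratios on this array were smaller than their own spot error, as were 36.7% of those of all detected genes. The counts included 6 genes whose transfected channel was not well above background. Among the 31 genes measured in both channels the median was -1.27, and 16 lay below -1. Of all 17452 genes measured in both channels, 697 lay below -1, and their median was 0.07. With limma processing (normexp, loess and Aquantile) and the mean of the 4 PC3 mock channels as the control, the median was -1.05, with 21 genes below -1. The share of all genes was not computed with that processing.

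The other conditions gave smaller ratios. After miR-100-3p in PC3 cells, the median of the 37 genes was -0.29, none was below -1 (3.34% of all detected genes) and none above 1 (0.987%). After miR-150-3p, the median was -0.56, with 8 genes below -1 (6.68% of all genes), 7 of them measured in both channels, and 0 above 1 (2.69%). Of all 17605 genes measured in both channels, 402 were below -1. The count of 8 depended on processing and control together. It was 0 with the same limma processing and the mean of the 4 PC3 mock channels as the control. After miR-150-5p, the median was -0.08, and no gene was below -1 (4.49%) or above 1 (0.664%). In FaDu cells after miR-99a-3p the median was 0.50, no gene was below -1 (9.37% of all genes), and 5 were above 1 (8.25%). These 5 of 37 genes are a share not far from that of all genes, while 30 of the 37 genes lay above 0 and the median of all detected genes was -0.03. FaDu cells after miR-99a-5p gave a median of 0.14, with 0 genes below -1 (4.86%) and 0 above 1 (0.851%). PANC-1 cells gave medians of 0.16 with si-FOXQ1-1 and 0.09 with si-FOXQ1-2. There, 0 genes were below -1 with either siRNA (3.31% and 3.29% of all genes), 1 was above 1 with si-FOXQ1-1 (0.905%) and 0 with si-FOXQ1-2 (0.412%). On these 2 arrays 22 and 29 of the 37 ratios were smaller than their own spot error, and so were 57.3% and 62.7% of those of all detected genes, so the first count is near the share of all genes. Whether arrays of 1 cell line were hybridised with the same mock RNA is not given in the sources used here, so ratios of a line are set side by side and no relation between its arrays was computed.

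**Figure D1:**
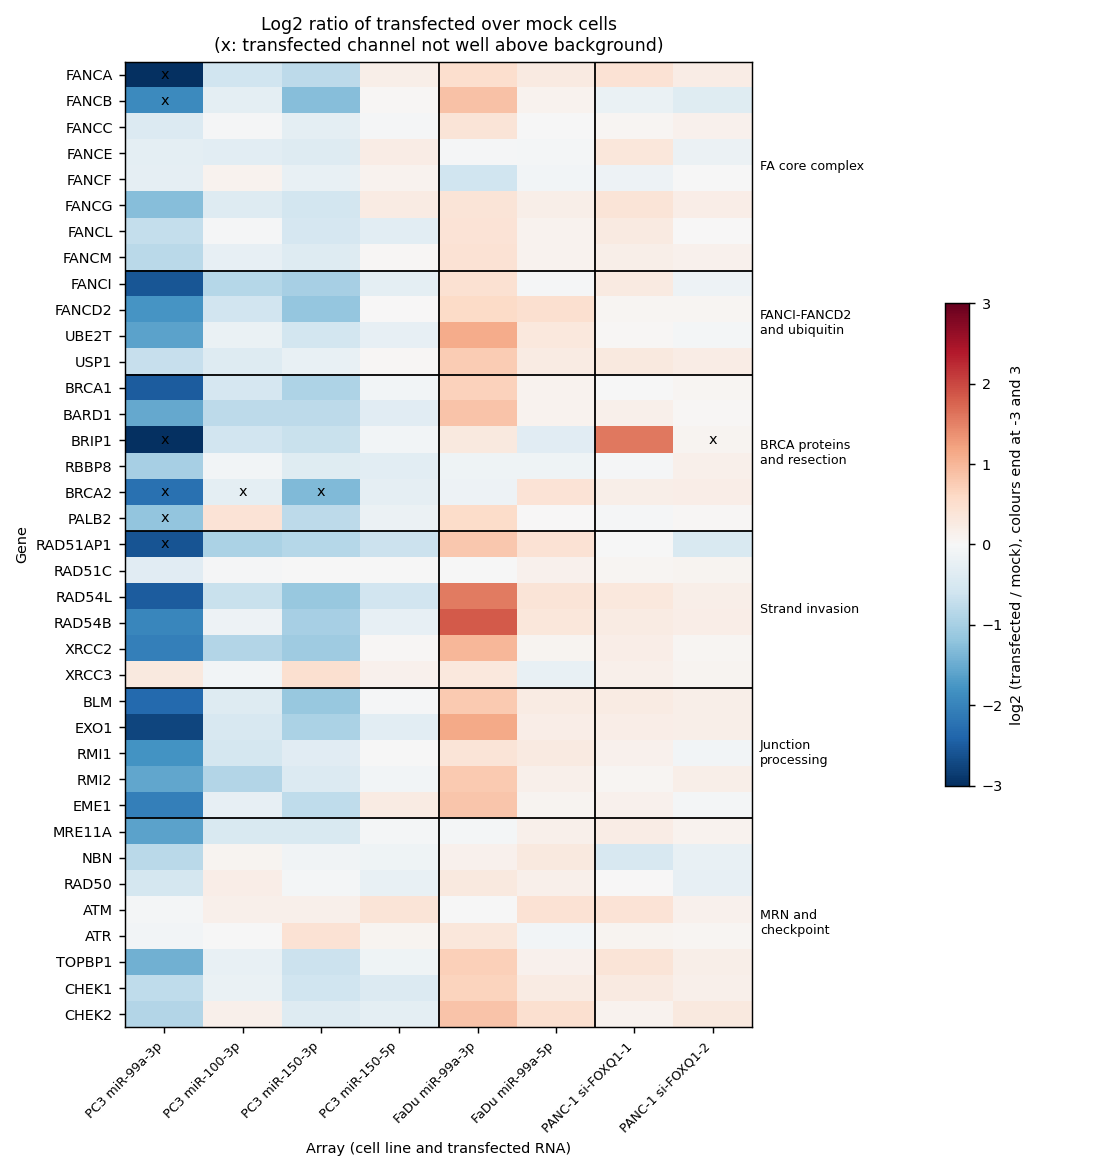
Log2 ratio of transfected over mock cells for the 37 genes (rows, grouped by role) on the 8 arrays (columns), blue below 0 and red above 0. An x marks a transfected channel not well above background. The PC3 miR-99a-3p column is blue for 36 of 37 genes and the FaDu miR-99a-3p column is red for 30.

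The FA core complex, the ubiquitin ligase of the pathway, had ratios closer to 0 than most roles. Its 8 genes had a median of -0.75 after miR-99a-3p in PC3 cells, and 3 of 8 were below -1. Of the 6 measured in both channels, 1 was below -1. FANCB, encoded on the X chromosome and a scaffold of the catalytic module, gave log2 ratios of -1.90 and -0.29 in PC3 cells with miR-99a-3p and then miR-100-3p, -1.27 and 0.03 with miR-150-3p and miR-150-5p, 0.89 and 0.10 in FaDu cells with miR-99a-3p and miR-99a-5p, and -0.20 and -0.37 in PANC-1 cells with si-FOXQ1-1 and si-FOXQ1-2. This order of arrays is kept below. FANCB was dim in the transfected channel of the PC3 miR-99a-3p array. Its dim signal of 54.0 exceeded the lowest signal called well above background in that channel, 45.8. Its value of 3.74-fold lower than in mock cells is therefore the deposited ratio itself. FANCG, a subunit that helps assemble the complex, gave -1.27, -0.38, -0.56 and 0.25 in PC3 cells, 0.38 and 0.18 in FaDu cells, and 0.40 and 0.19 in PANC-1 cells. It was past 2-fold on the PC3 miR-99a-3p array only.

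FANCA, another subunit, had the lowest deposited ratio of the complex, and it too was a bound. On the PC3 miR-99a-3p array its ratio was -3.06, with a mock signal of 354 and a transfected signal of 42.6 that was not well above background, which places it at least 7.73-fold lower. A second probe of FANCA, with 10 spots, was dim in the transfected channel as well and stands as at least 6.46-fold lower. FANCL, which carries the ligase activity, was at -0.70 and FANCM, the translocase that anchors the complex at DNA, at -0.80. FANCC, FANCE and FANCF stayed between -0.41 and -0.27 on this array. On the FaDu miR-99a-3p array FANCF was at -0.60, the lowest of the 37 genes, but its second probe gave 0.86, so the probes of this gene disagree in sign.

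The FANCI-FANCD2 pair and its ubiquitin enzymes had a median of -1.68 after miR-99a-3p in PC3 cells, with 3 of 4 genes below -1, and of 0.66 after miR-99a-3p in FaDu cells. FANCI, which forms the DNA clamp with FANCD2, gave -2.57, -0.86, -1.01 and -0.28 in PC3 cells, 0.46 and -0.03 in FaDu cells, and 0.28 and -0.15 in PANC-1 cells. Its probe lies at chr15:89858528-89858587 (hg19, + strand). FANCD2, the subunit whose ubiquitin marks the activated pathway, gave -1.76, -0.56, -1.16 and 0.01 in PC3 cells, 0.56 and 0.48 in FaDu cells, and 0.07 and 0.05 in PANC-1 cells. These FANCD2 ratios are from the brightest of its 3 probes. Both subunits were past 2-fold on the PC3 arrays of miR-99a-3p and miR-150-3p, and both lay nearer to 0 on the PANC-1 arrays. UBE2T, the ubiquitin-conjugating enzyme that works with FANCL, gave -1.60, -0.20, -0.56 and -0.24 in PC3 cells, 1.12 and 0.32 in FaDu cells, and 0.04 and -0.06 in PANC-1 cells. It crossed 2-fold downwards in 1 cell line and upwards in the other after the same miRNA. USP1, which removes the ubiquitin again, ranged more narrowly, from -0.70 to 0.75, with miR-99a-3p in PC3 and in FaDu cells, over a probe with 10 spots.

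The BRCA proteins and resection factors had a median of -1.89 after miR-99a-3p in PC3 cells, with 5 of 6 deposited ratios below -1 and the sixth, the resection factor RBBP8 (CtIP), at -0.99. BRIP1, BRCA2 and PALB2 were dim in the transfected channel there, and of the 3 genes measured in both channels 2 were below -1, with a median of -1.55. BRCA1, which forms a ubiquitin ligase with BARD1 and promotes resection, gave -2.50, -0.50, -0.92 and -0.09 in PC3 cells, 0.70 and 0.10 in FaDu cells, and -0.01 and 0.06 in PANC-1 cells. Its partner BARD1 gave -1.55, -0.78, -0.78 and -0.34 in PC3 cells, 0.86 and 0.11 in FaDu cells, and 0.16 and 0.05 in PANC-1 cells. The partners lay on the same side of 0 on 7 of the 8 arrays and on opposite sides on the PANC-1 si-FOXQ1-1 array, where each ratio was smaller than its spot error of 0.21. BRIP1 (FANCJ), the helicase bound by BRCA1, gave -4.27, -0.57, -0.66 and -0.08 in PC3 cells, 0.30 and -0.33 in FaDu cells, and 1.57 and 0.09 in PANC-1 cells.

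The 2 extreme BRIP1 ratios rested on dim spots. On the PC3 miR-99a-3p array its ratio was the lowest deposited for any detected gene, yet with signals of 220 in mock and 11.4 in transfected cells it stands only as at least 4.79-fold lower. On the PANC-1 si-FOXQ1-1 array the signals were 20.5 and 61.0, and on the si-FOXQ1-2 array they were 21.3 and 22.7, the latter not well above background. The ratio of 1.57 was therefore seen with 1 of the 2 siRNAs, and it fell under 1 when the background was corrected with normexp. BRCA2, a mediator of strand invasion, was dim in the transfected channel of 3 PC3 arrays. The bound was 1.25-fold lower with miR-99a-3p, on a mock signal of 57.1 and a spot error of 0.76 on the log2 scale. That bound is smaller than the spot error, so no lower level is stated from it. With miR-150-3p its level was at least 1.94-fold lower. With miR-100-3p the rule gave 1.22-fold, which is the deposited ratio of -0.29 itself. That ratio was smaller than its spot error of 0.39, so no lower level is stated there. PALB2, which joins BRCA1 to BRCA2, was at least 2.12-fold lower with miR-99a-3p in PC3 cells and at 0.56 with miR-99a-3p in FaDu cells.

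The genes of strand invasion had a median of -2.001 after miR-99a-3p in PC3 cells, with 4 of 6 genes below -1 (3 of the 5 measured in both channels), and the highest median of the roles, 0.91, after miR-99a-3p in FaDu cells. RAD54L, a motor protein that works in strand invasion, gave -2.50, -0.67, -1.13 and -0.58 in PC3 cells, 1.55 and 0.38 in FaDu cells, and 0.32 and 0.19 in PANC-1 cells. RAD54B, its relative, gave -1.95, -0.14, -1.001 and -0.24 in PC3 cells, 1.84 and 0.35 in FaDu cells, and 0.24 and 0.21 in PANC-1 cells. These were the 2 highest values of the 37 genes on the FaDu miR-99a-3p array, although a dimmer second probe of RAD54B gave 0.02 there. XRCC2, a subunit of a recombination complex, gave -2.05, -0.89, -1.06 and 0.02 in PC3 cells, 1.01 and 0.09 in FaDu cells, and 0.21 and 0.06 in PANC-1 cells. RAD51AP1, a DNA-binding protein of strand invasion, was at least 3.17-fold lower with miR-99a-3p in PC3 cells and had the lowest ratio of the 37 genes with miR-100-3p, at -0.94.

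RAD51C, and XRCC3 by its brighter probe, did not share this pattern. Their products form a complex of their own. RAD51C lay between -0.35 and 0.14 on all 8 arrays. XRCC3 was the only one of the 37 genes above 0 after miR-99a-3p in PC3 cells, at 0.30, but its probes disagree. The brighter probe, at chr14:104170734-104170793 (hg19, - strand) and named for an Ensembl transcript, had a mock signal of 93935 there. The second probe, for a RefSeq transcript, had a mock signal of 2186 and a ratio of -1.21 on that array, -0.59 with miR-150-3p, and 0.93 in FaDu cells with miR-99a-3p. Which probe follows the protein-coding transcript was not tested.

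The genes of junction processing were below -1 without exception after miR-99a-3p in PC3 cells, 5 of 5 with a median of -2.05. In FaDu cells with the same miRNA all 5 were above 0, with a median of 0.80. EXO1, the exonuclease of long-range resection, gave -2.76, -0.47, -0.94 and -0.32 in PC3 cells, 1.13 and 0.19 in FaDu cells, and 0.19 and 0.17 in PANC-1 cells. Its probe had 10 spots, whose SD was 0.26 after miR-99a-3p in PC3 cells and 0.10 after it in FaDu cells. BLM, the helicase that dissolves double junctions, gave -2.34, -0.38, -1.15 and -0.04 in PC3 cells, 0.80 and 0.24 in FaDu cells, and 0.24 and 0.17 in PANC-1 cells. EME1, the partner of the MUS81 nuclease, gave -2.05, -0.25, -0.76 and 0.25 in PC3 cells, 0.84 and 0.09 in FaDu cells, and 0.13 and -0.06 in PANC-1 cells. RMI1 and RMI2, which work in the complex of BLM, were at -1.79 and -1.55 with miR-99a-3p in PC3 cells and at 0.38 and 0.78 with it in FaDu cells.

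The break sensors and checkpoint genes were, like the core complex, closer to 0. Their 8 genes had a median of -0.77 after miR-99a-3p in PC3 cells, with 2 of 8 below -1, and of 0.31 in FaDu cells with it. MRE11A, the nuclease of the MRE11-RAD50-NBN complex, gave -1.62, -0.46, -0.45 and -0.07 in PC3 cells, -0.05 and 0.16 in FaDu cells, and 0.22 and 0.11 in PANC-1 cells. Its complex partners NBN and RAD50 were at -0.80 and -0.52 on the PC3 miR-99a-3p array. TOPBP1, the activator of the ATR kinase, gave -1.44, -0.22, -0.65 and -0.12 in PC3 cells, 0.71 and 0.12 in FaDu cells, and 0.38 and 0.17 in PANC-1 cells. The kinases ATM and ATR, which start the response by phosphorylating these proteins, lay at -0.07 and -0.08 with miR-99a-3p in PC3 cells, both within their spot error of 0.21. Their effector kinases CHEK1 and CHEK2 were at -0.75 and -0.87 there and at 0.67 and 0.85 in FaDu cells.

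The limit used for a dim channel changes the bounds. With the highest signal that was not called above background as the limit, the bounds on the PC3 miR-99a-3p array were 4.82-fold for FANCA, 2.99-fold for BRIP1, 2.75-fold for FANCB, 1.98-fold for RAD51AP1 and 1.32-fold for PALB2, and BRCA2 had none. BRCA2 also had none with miR-100-3p, and 1.27-fold with miR-150-3p.

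The same miRNA, miR-99a-3p, thus gave ratios on opposite sides of 0 in the 2 cell lines for most of the list. Of the 37 genes, 29 were lower in PC3 cells and higher in FaDu cells, and for 27 of these both ratios exceeded their own spot error. Of the 17478 genes detected on both arrays, 23.6% were lower in PC3 and higher in FaDu cells, and 11.8% were so with both ratios beyond their spot error. FANCE, FANCF, RAD51C, BRCA2, RBBP8, MRE11A and ATM, 7 in all, were below 0 in both lines, and of these only FANCF, by its brighter probe, had both ratios beyond its spot error. The second FANCF probe was above 0 in both lines, at 0.17 and 0.86. XRCC3 was above 0 in both by its brighter probe. Among the genes measured in both channels on both arrays, the widest distances were those of RAD54L and EXO1, at 4.06 and 3.90 on the log2 scale. The difference between the lines was not tested, since each rests on 1 array.

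**Figure D2:**
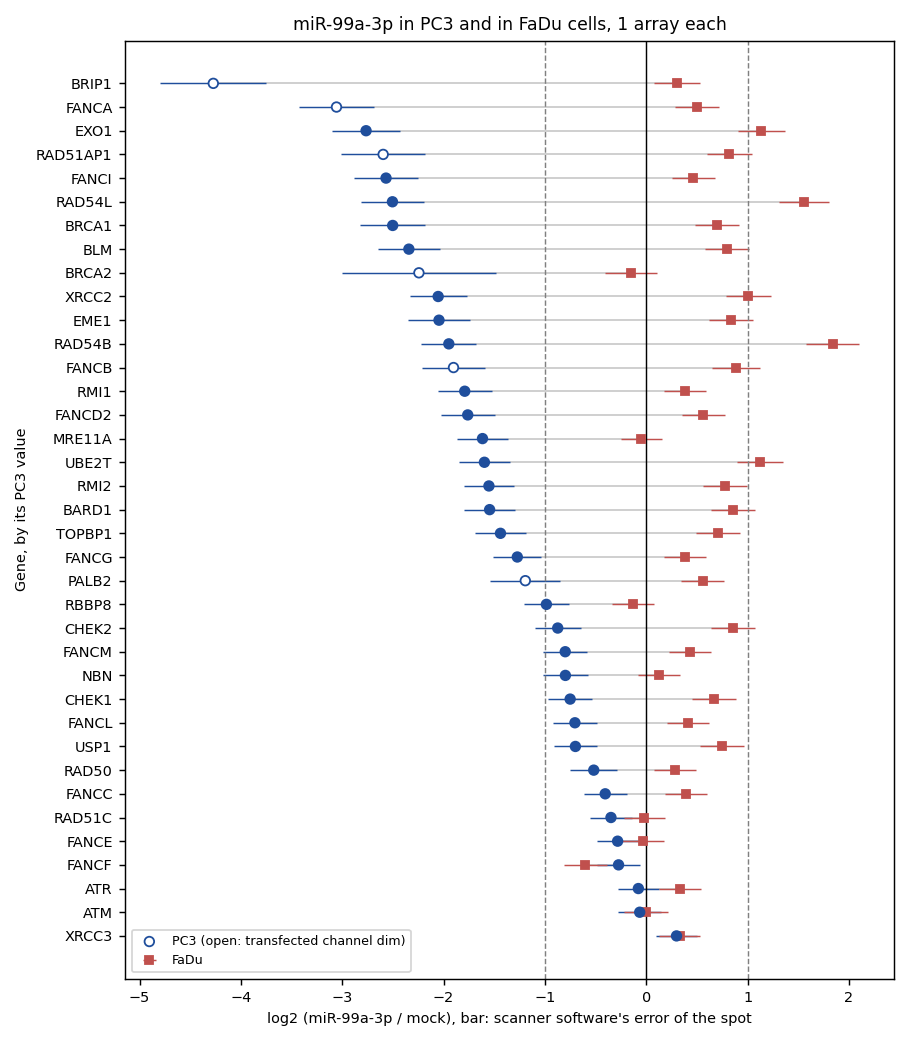
Log2 ratio after miR-99a-3p for each of the 37 genes in PC3 cells (circles, open where the transfected channel was dim) and FaDu cells (squares), with bars for the scanner software's spot error. Genes are ordered by the PC3 value, dashed lines mark 2-fold, and 29 genes lie left of 0 in PC3 cells and right of it in FaDu cells.

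Other genes of the same pathways, 59 by a list of which 56 had a probe, had a median closer to 0 after miR-99a-3p in PC3 and FaDu cells. Both lists were chosen with earlier results of these data known, so their medians are only set side by side. On the PC3 miR-99a-3p array 54 were detected, with a median of -0.43, 42 below 0 and 15 below -1 (7.39% of all detected genes). Among the lowest measured in both channels were the recombination cofactor MND1 at -2.57 and the polymerase POLQ at -2.49. At the other end were ERCC4 at 0.47, REV3L at 0.41 and FAN1 at 0.34, a nuclease subunit, a translesion polymerase and a crosslink nuclease. On the FaDu miR-99a-3p array these 54 genes had a median of 0.23, with 36 above 0 and 7 above 1 (8.25% of all genes).

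Other repair pathways were closer to 0. After miR-99a-3p in PC3 cells, end joining genes had a median of -0.68 with 2 of 11 below -1, mismatch repair genes -0.24 with 0 of 7, and excision repair genes -0.12 with 2 of 29. In FaDu cells with miR-99a-3p the 3 medians were 0.01, 0.06 and -0.04. On the 2 miR-99a-3p arrays, cell cycle genes moved in the same direction as the 37 genes and further. In PC3 cells with miR-99a-3p, S phase genes had a median of -1.86 with 30 of 36 below -1, and G2 and M phase genes -1.89 with 42 of 54. In FaDu cells with it their medians were 1.08 and 0.87, each with 19 genes above 1. With miR-150-3p in PC3 cells they were -0.86 and -0.59, and with miR-100-3p -0.41 and -0.56. In PANC-1 cells with si-FOXQ1-1 and si-FOXQ1-2, S phase medians were 0.28 and 0.14, and G2 and M phase medians 0.15 and 0.01. No gene of the 37 is in these cell cycle lists as counted here, and the part of the cell cycle in the ratios of the 37 genes was not tested.

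**Figure D3:**
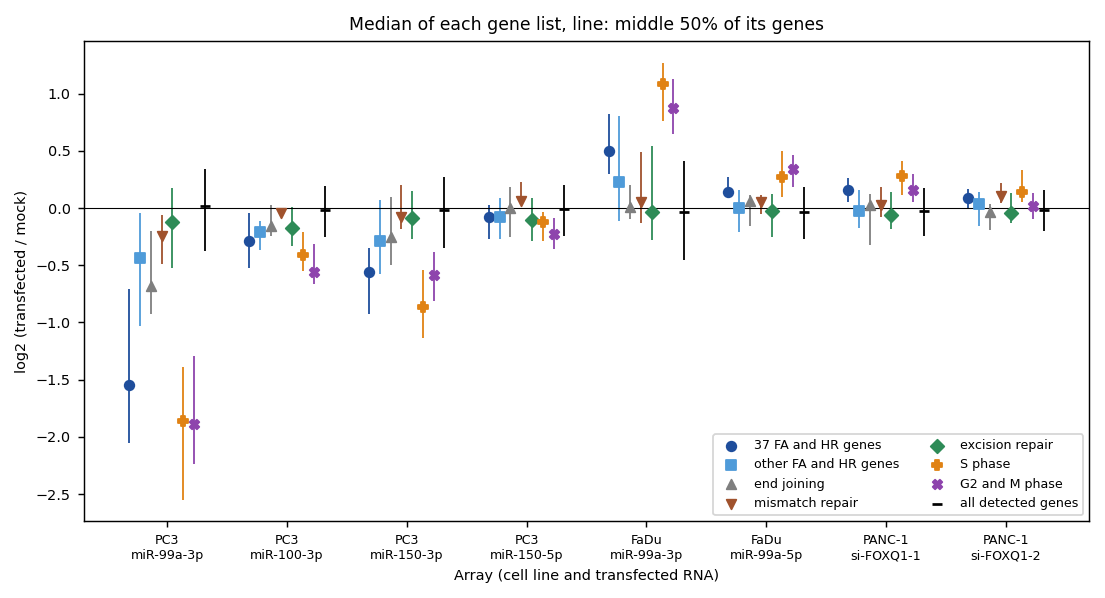
Median log2 ratio of transfected over mock cells (symbols) and the middle 50% of genes (lines) for the 37 genes, 6 other gene lists and all detected genes on the 8 arrays. On the 2 miR-99a-3p arrays the median of the 37 genes, -1.55 in PC3 and 0.50 in FaDu cells, lies between those of the cell cycle lists and those of the other repair lists.

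Promoter sequence was set beside these values because genes transcribed in S phase often carry E2F sites. RefSeq windows (GRCh38.p14) of 250 bases before and 50 after a start were matched by symbol for 32 of the 37 genes, and the other 5 were not analysed here. An E2F word was TTTCCCGC, TTTCGCGC, TTTGCCGC or TTTGGCGC on either strand. It was in at least 1 window of 7 of the 32 genes (21.9%), and in that of 1090 of all 27305 genes (3.99%), or 1164 of 35116 windows (3.31%). CCAAT, the NF-Y word, was in 16 of 32 genes and in 39.7% of all genes. The cell cycle element TTTGAA or TTCGAA was in 5 of 32 genes (15.6%) and in 19.5% of all genes. No word contains another, and a match is a stretch of letters and not a bound site.

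The 7 windows with an E2F word are shown, 60 bases each on the strand of the gene, with the word in capitals.
FANCA, chr16:89816802-89816861 (-): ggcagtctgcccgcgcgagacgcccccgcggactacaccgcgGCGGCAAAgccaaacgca
FANCC, chr9:95317738-95317797 (-): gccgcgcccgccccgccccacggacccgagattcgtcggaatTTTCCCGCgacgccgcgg
FANCD2, chr3:10026383-10026442 (+): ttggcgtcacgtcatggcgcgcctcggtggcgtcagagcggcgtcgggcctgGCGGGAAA
XRCC2, chr7:152676113-152676172 (-): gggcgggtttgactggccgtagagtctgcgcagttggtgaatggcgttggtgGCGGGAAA
EXO1, chr1:241848156-241848215 (+): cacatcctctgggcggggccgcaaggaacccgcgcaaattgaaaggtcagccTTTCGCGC
RMI1, chr9:83980731-83980790 (+): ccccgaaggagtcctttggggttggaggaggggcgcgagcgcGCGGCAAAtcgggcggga
TOPBP1, chr3:133661941-133662000 (-): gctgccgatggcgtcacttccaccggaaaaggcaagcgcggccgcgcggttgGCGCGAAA
On the PC3 miR-99a-3p array 6 of these 7 genes were below -1, FANCC being the exception at -0.41, and 12 of the 25 genes without the word in their windows were below -1. The medians were -1.79 with the word and -0.99 without it. In FaDu cells with miR-99a-3p they were 0.56 and 0.43. For CCAAT the PC3 medians were -1.40 with it and -1.36 without it, with 9 and 9 genes below -1. For the cell cycle element they were -0.70 with it and -1.44 without it, with 2 and 16 genes below -1. The FaDu medians with and without the word were 0.61 and 0.40 for CCAAT and 0.39 and 0.56 for the cell cycle element. A relation of words to ratios was not tested.

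Levels in mock cells were compared between the lines on the Cy3 channels alone, as log2 signal after quantile normalization of the 8 channels. The 4 PC3 channels had a median SD of 0.106 over the 37 genes, with a range from 0.0198 for FANCL to 0.463 for FANCF. A gene was counted where the means differed by more than 2-fold and the channels of the lines did not overlap. FaDu cells had 12 of 37 genes higher than PC3 cells (20.3% of all genes) and 2 lower (22.6%). PANC-1 cells had 7 higher (16.6%) and 4 lower (17.3%) than PC3 cells. Against PANC-1 cells, FaDu cells had 7 higher (18.7%) and 3 lower (21.2%). The count of 12 was above the share of all genes, the 2 counts of 7 were near it, and the counts of lower genes were under it. The labels do not say whether mock channels came from separate cultures, so the spread may be technical.

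RAD50, which holds broken ends together, stood furthest apart. Its log2 level was 7.34 ± 0.05 (SD, n = 4) in PC3 cells, and its FaDu channels were at 9.92 and 9.86 and its PANC-1 channels at 11.29 and 11.32. The distance from PC3 to PANC-1 cells was 3.96 on the log2 scale. FANCF was at 7.95 and 8.01 in the PC3 mock channels of the miR-99a-3p and the miR-100-3p array, at 8.85 and 8.70 in those of the miR-150-3p and the miR-150-5p array, and at 10.77 and 10.78 in FaDu cells. Here the 2 pairs of PC3 channels differed by more than 0.6, while all FaDu channels lay above all PC3 channels.

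PALB2 was higher than in PC3 cells by 2.10 in FaDu cells and by 1.27 in PANC-1 cells, and BLM by 1.59 in FaDu cells. FANCI was higher in FaDu than in PC3 cells by 1.23 and FANCD2 by 1.03. The opposite order held for the 2 genes lower in FaDu than in PC3 cells, RAD54B by -1.92 and FANCM by -1.23. BRIP1 was at 4.70 and 4.87 in PANC-1 cells, lower than in PC3 cells by a mean of -2.37. It was the only gene of the list past 2-fold on a PANC-1 array, on dim spots and with si-FOXQ1-1 only. RAD51C was at 9.88 and 9.84 in PANC-1 cells and at 11.45 to 11.57 in PC3 cells.

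**Figure D4:**
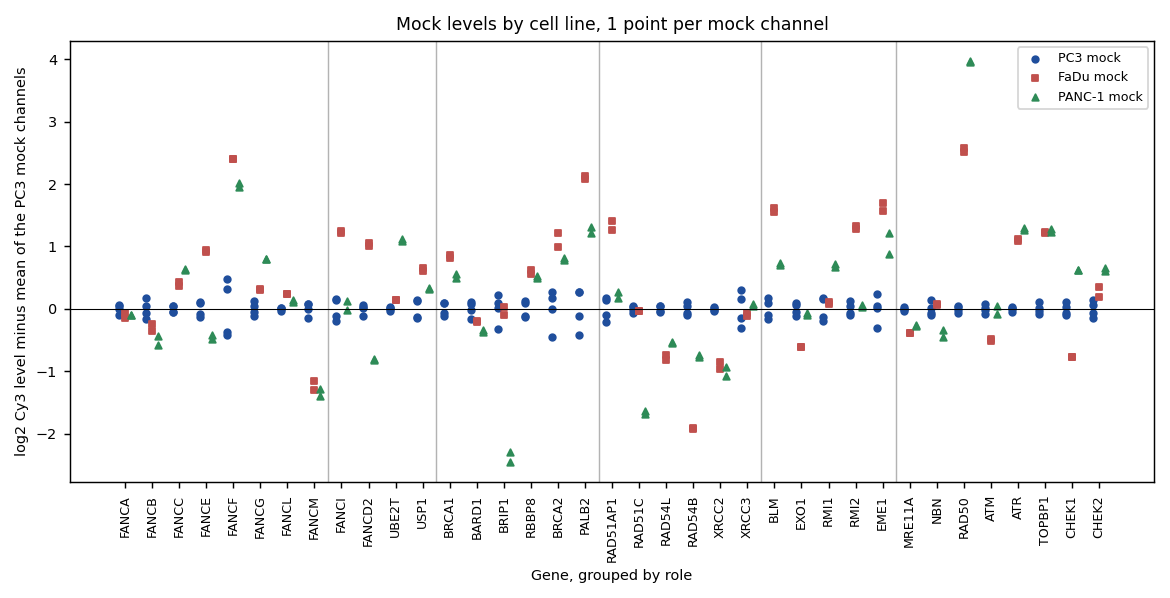
Log2 Cy3 level of each of the 37 genes in the mock channels of PC3 (circles), FaDu (squares) and PANC-1 cells (triangles), minus the mean of the 4 PC3 channels, with 1 point per channel. Channels of a line lie close together for most genes, and RAD50 in PANC-1 cells is furthest from PC3 cells, at 3.96.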

How the data were processed

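Total RNA of 8 transfections and their mock cells was hybridised to 8 arrays. The authors scanned them with Agilent Feature Extraction 10.7.3.1, per the file headers, which subtracted background, balanced the dyes on every array and wrote the deposited intensity of each channel, the deposited log10 ratio of Cy5 over Cy3 and its error. The deposited series values, log10 ratios too, differed from these by at most 0. The slope of the spike-in ratios on their expected values was 0.882 to 0.900, so ratios are compressed.

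Here log10 ratios were multiplied by 3.3219. Control and flagged spots were left out, spots of a probe averaged, and each gene given, from 58201 probes, that of highest mean log2 signal on all arrays. Of the 37 genes, 27 had 1 probe, and 5 had a brightest probe with 10 spots. For the 10 genes with more than 1 probe, ratios are those of the brightest unless a second probe is named. A gene with either channel well above background was detected. For a dim channel, "at least" divides the bright signal by the higher of the dim spot's and the lowest signal called well above background in that channel. No test was run. The genes and lists were chosen with earlier results of these data known. Values were given in full for up to 3 genes per role, well above background in both channels on at least 6 arrays and past 2-fold on 1 of these, by widest range. FANCA, BRIP1, RAD50 and others are also described for their values. Alternatives used limma 3.58.1 (normexp, offset 50, loess, Aquantile). Steps were tested on simulated data. The remaining software was Python 3.11.15 with pandas 2.3.3 and numpy 2.4.6. Precision is limited by the number of arrays. Probe positions are on hg19. Some genes are not reported here singly.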

Additional observations from a re-analysis of the deposited data

Results flagged for a closer look

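The ratios after miR-99a-3p lay on opposite sides of 0 in PC3 and FaDu cells for 29 of the 37 genes, lower in PC3 and higher in FaDu, which held for 23.6% of all genes detected on both arrays. The medians were -1.55 and 0.50, and the difference between the cell lines was not tested because each has 1 array.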

How the results depend on the processing

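Medians of the 37 genes kept their sign on all 8 arrays under all alternatives run. On the PC3 miR-99a-3p array the median moved from -1.55 to -0.99 with normexp and loess, to -1.27 with both channels above background and to -1.05 with the mean of the 4 PC3 mock channels as the control. That control was combined with normexp, loess and Aquantile, so processing and control changed together. Over the alternatives the median ranged from -0.30 to -0.17 with miR-100-3p, -0.56 to -0.37 with miR-150-3p and -0.09 to -0.0083 with miR-150-5p, less than the median spot error. Genes below -1 after miR-150-3p went from 8 to 2 with normexp and to 0 with that control, and after miR-100-3p from 0 to 1 with that control. Genes above 1 went from 5 to 3 in FaDu cells with miR-99a-3p and from 1 to 0 with si-FOXQ1-1, both with normexp. Shares of all genes were not computed with normexp or that control. The cause was not tested. Keeping flagged spots and the mean over probes moved no median or count beyond its limit. No filter and the series values could move none, since all 37 genes were already detected and the series values were identical. Of the single-gene ratios under each alternative, 83 moved by more than their spot error and 1832 did not, and none past 2-fold changed sign. Those settings and the filter on both channels could not move a ratio. With normexp and loess 23 moved and 273 did not, and with the mean PC3 mock control 35 and 113. With the mean over probes 25 moved and 271 did not, and with flagged spots kept all 296 stayed. Leaving out each mock channel in turn gave 10 to 12 genes higher and 2 lower in FaDu than PC3 cells, 6 to 7 and 3 to 4 in PANC-1 than PC3 cells, and 7 and 3 in FaDu than PANC-1 cells. No paired analysis was possible because the conditions were hybridised once each.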
